A study of Mus musculus with 6 samples.

Results

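For Carm1, 2 circular RNAs (circRNAs) could be paired with a probe on the array, mmu_circRNA_002319 and mmu_circRNA_43828. They were found as every circRNA whose gene is Carm1 in the study's tables of circRNAs, which, as far as they were held, paired 1927 circRNAs with a gene, of 14236 on the array and 13420 kept after a filter on dim probes. Both came from the list of 218 circRNAs that the study selected on the difference between the genotypes, and none came from the 1734 entries held of the sheet of all circRNAs. Both members were therefore chosen by the same APP/PS1 and WT values that are given here, and their differences between genotypes are a description without a test. The paper also reports that a Carm1 circRNA, circCarm1, changed significantly by quantitative PCR in cortical microglia of APP/PS1 mice. In cultured BV-2 cells treated with lipopolysaccharide it reports circCarm1 as unchanged. Which of the 2 circRNAs given here is circCarm1 was not checked.

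Cortical microglia were collected from male mice at 6 months, 3 of them WT and 3 APP/PS1, and each of the 6 samples was hybridized in 1 colour to an array of its own. WT mice were C57BL/6J, and APP/PS1 mice carried a chimeric mouse and human amyloid precursor protein (APP) with the Swedish mutation and a mutated human presenilin 1 (PS1); the promoters of both transgenes are not given in the sources used here, and the WT mice are not said to be littermates. Cells were taken from a Percoll gradient with magnetic beads against CD11b, which is found on the surface of microglia and other myeloid cells, and their RNA was treated with RNase R, which degrades linear RNA. The design text gives different donors for each experiment, so the replicates were taken as separate samples.

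A circRNA forms when the end of an exon is spliced backwards to the start of the same or an earlier exon, which closes the RNA into a ring. The junction made in this way is absent from the linear messenger RNA of the gene. CircRNAs that share a start use the same acceptor site and differ in the donor site that is joined to it. Carm1 encodes an arginine methyltransferase, also known as PRMT4, that methylates histone H3 and splicing and chromatin proteins and acts with acetyltransferases as a coactivator of transcription.

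The Carm1 circRNAs lay on the plus strand at chr9:21569455-21575518 for mmu_circRNA_002319 and at chr9:21569455-21580486 for mmu_circRNA_43828. The study's list gives these positions without naming their genome build. Both intervals fell inside Carm1 in the RefSeq annotation of GRCm38.p6, as did those of 167 of the 173 circRNAs of the list whose transcript was found there. The list gives both as exonic circRNAs of the transcript NM_021531. The shorter one spanned 6064 bases and has a listed length of 338 nt, and the longer one spanned 11032 bases and has a listed length of 627 nt. Listed exon sequence thus made up 5.57% and 5.68% of the spans. The longer circRNA ended 4968 bases further downstream and was 289 nt longer. Each circRNA had 1 probe and each probe had 1 spot. The probe sequences were not analysed here, so how far both probes share bases, and whether each probe binds 1 of the circles alone, is not known.

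**Figure D1:**
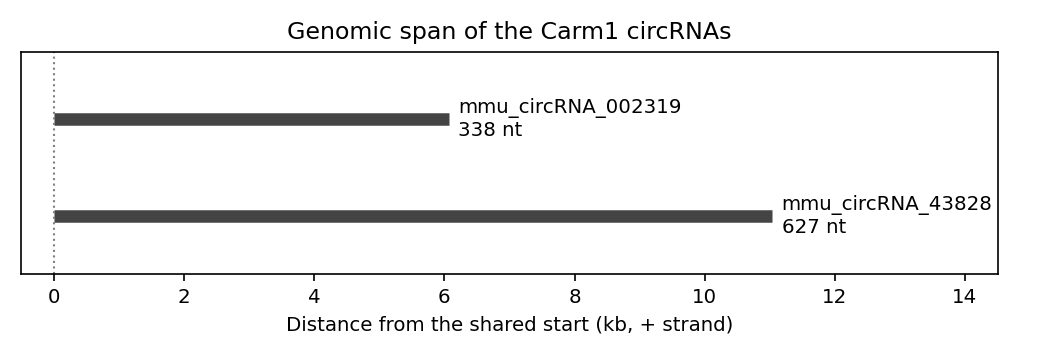
The genomic span of both Carm1 circRNAs is drawn to scale as distance in kb from their shared start, with listed lengths in nt beside the bars. Both bars begin at 0 and end at 6064 and 11032 bases; the exons inside the spans are not drawn.

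Both Carm1 circRNAs had higher signal in APP/PS1 than in WT microglia. In these values mmu_circRNA_002319 had the largest log2 increase of all 13420 circRNAs kept. Its normalized log2 signal in replicates 1, 2 and 3 was 7.63, 8.20 and 8.16 for WT and 10.19, 9.71 and 8.90 for APP/PS1. The lowest APP/PS1 value lay 0.70 above the highest WT value. The means were 8.0 ± 0.32 in WT and 9.60 ± 0.65 in APP/PS1 (SD, n = 3), a log2 difference of 1.60 with a limma standard error (SE) of 0.33, or 3.04-fold. One SE to either side of this gave 2.42-fold and 3.81-fold.

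The longer circRNA, mmu_circRNA_43828, was in 10th place by the same measure. Its normalized log2 signal in replicates 1, 2 and 3 was 7.53, 8.07 and 7.91 for WT and 9.67, 9.26 and 8.53 for APP/PS1. The genotypes were again apart, by 0.46 between the nearest values. The means were 7.84 ± 0.28 in WT and 9.15 ± 0.58 in APP/PS1 (SD, n = 3), a log2 difference of 1.31 with an SE of 0.29, or 2.48-fold. One SE to either side gave 2.03-fold and 3.04-fold.

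**Figure D2:**
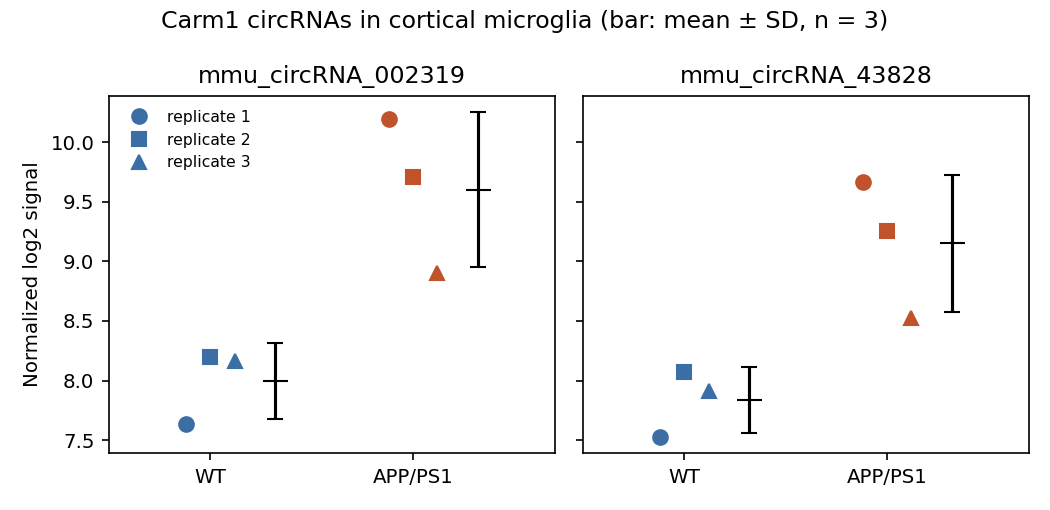
Normalized log2 signal of both Carm1 circRNAs in each of the 3 WT (blue) and 3 APP/PS1 (orange) arrays, with symbols for the replicate number and black bars for mean ± SD. In both panels WT replicate 1 is the lowest and APP/PS1 replicate 1 the highest of the 6 values, and the genotypes do not overlap.

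Of all 13420 circRNAs kept, 3.15% were higher in APP/PS1 microglia with more than a 1.5-fold difference and an unadjusted limma p below 0.05, 2.26% were lower past both of these thresholds, and in 12.3% all APP/PS1 values lay above all WT values. Both Carm1 circRNAs met the first and the last criterion, and nothing is read from this because the list they came from was selected on the same contrast. After Benjamini-Hochberg adjustment in limma, 0 circRNAs had a p under 0.05 (the minimum was 0.124), against 2384 before adjustment. The median log2 difference of all circRNAs kept was -0.01 and their SD 0.31.

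**Figure D3:**
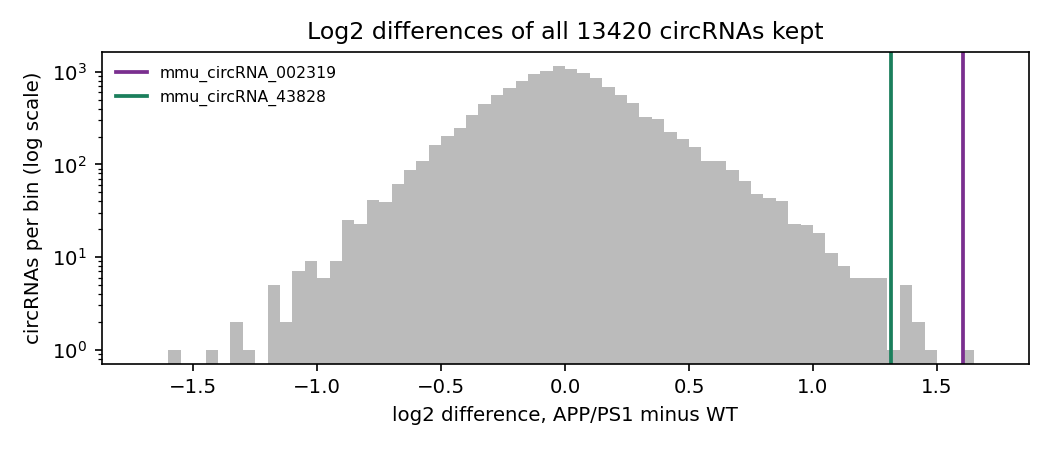
Histogram of the log2 difference between APP/PS1 and WT means for the 13420 circRNAs kept, in bins of equal width with the number per bin on a log axis. Vertical lines mark mmu_circRNA_43828 at 1.31 and mmu_circRNA_002319 at 1.60, at the right end of the distribution.

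Before normalization both spots were far above their local background. The median spot signal of mmu_circRNA_002319 in replicates 1, 2 and 3 was 179, 293.5 and 254 for WT and 1156, 1203 and 583 for APP/PS1, on local backgrounds between 15 and 22. That of mmu_circRNA_43828 was 237, 262.5 and 229 in WT and 852, 839 and 422.5 in APP/PS1, on local backgrounds between 13 and 21. Every array thus gave each probe a measured level: the signal was between 8.14 and 80.2 times the background for the shorter circRNA and between 11.3 and 64.5 times for the longer one. Both probes were marked well above background on all 6 arrays, and neither was saturated or marked as an outlier on any. Within each array, the processed signal of mmu_circRNA_002319 was above that of 79.2% to 84.2% of circRNA probes in WT and 89.0% to 94.9% in APP/PS1. For mmu_circRNA_43828 these shares were 78.2% to 83.2% in WT and 86.5% to 92.9% in APP/PS1. Fewer cells with these circRNAs and less of them per cell cannot be told apart in such samples.

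Both probes ranked the 6 arrays in the same order. From low to high this was WT replicates 1, 3 and 2 and then APP/PS1 replicates 3, 2 and 1. Of all circRNAs kept, 182 had this order, among them 56 of the 218 in the list of changed circRNAs. The probes also moved together within a genotype. The deviations of mmu_circRNA_002319 from its genotype mean were -0.37, 0.20 and 0.17 in WT and 0.59, 0.11 and -0.70 in APP/PS1, in the order of the replicate numbers. Those of mmu_circRNA_43828 were -0.31, 0.23 and 0.07 in WT and 0.52, 0.11 and -0.62 in APP/PS1. In these values the direction was the same on 6 of 6 arrays, and on no array did the deviations differ by more than 0.09. The 3 deviations of a genotype depend on each other, so these are not 6 separate agreements. Agreement in WT was looser before the detrending step of the scanner software, described below. There the log2 ratio of both probes had an SD of 0.39 over the WT arrays, against 0.08 in these values. In APP/PS1 the SD was 0.02 against 0.08. The order of the APP/PS1 arrays depended on normalization: the unnormalized processed signal of the 3 APP/PS1 arrays was 1082, 1155 and 547 for the shorter circRNA and 755, 833 and 416 for the longer one, so that replicate 2 was the brightest. The median processed signal of all circRNA probes was 41.7, 57.3 and 51.2 on these arrays and between 39.1 and 43.8 on the WT arrays.

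As a description over the 6 arrays, Pearson r between both Carm1 circRNAs was 0.998. This value includes the difference between genotypes by which both were chosen, and all probes share the same 6 arrays. By r, mmu_circRNA_43828 was the third closest of 13419 probes to mmu_circRNA_002319, and mmu_circRNA_002319 the second closest to mmu_circRNA_43828. With the genotype means removed, r was 0.995 and the places were 8 and 10. Of the 13419 other probes, 103 had an r of at least 0.98 with mmu_circRNA_002319, and 104 with mmu_circRNA_43828. This cut is looser than the r of 0.998 between both Carm1 circRNAs.

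Among the 1870 probes kept that were paired with a gene, the one most like both Carm1 circRNAs was mmu_circRNA_26033 of Lyst, a regulator of lysosomal trafficking, with r = 0.999 to either and a log2 difference of 1.13 between genotypes. The next for both included mmu_circRNA_19034 of Tex14, an intercellular bridge protein of germ cells (log2 difference 1.21), mmu_circRNA_28493 of Rims2, a protein of the presynaptic active zone (0.95), and mmu_circRNA_37999 of Pank4, a member of the pantothenate kinase family (0.82). The remaining 1 of the 5 closest was mmu_circRNA_38940 of Adamts3, a protease that processes procollagen, for the shorter Carm1 circRNA (0.77) and mmu_circRNA_18977 of Ascc3, a helicase, for the longer one (0.95). All of these came from the list of changed circRNAs, which was selected on the same arrays.

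The increase was not equal for both probes. The log2 ratio of mmu_circRNA_43828 to mmu_circRNA_002319 within an array, for replicates 1, 2 and 3, was -0.10, -0.13 and -0.25 with WT and -0.53, -0.45 and -0.37 with APP/PS1. The mean was -0.16 ± 0.08 in WT and -0.45 ± 0.08 in APP/PS1 (SD, n = 3), a change of -0.29 with an SE of 0.06 from the spread of the arrays, and the genotypes did not overlap. A ratio of probe signals is no ratio of molecules, because probes differ in how well they bind, so only its change between arrays is described. Over the 6 arrays the SD of the normalized log2 signal was 0.99 for mmu_circRNA_002319 and 0.83 for mmu_circRNA_43828. Whether the probes differ in how steeply their signal rises with the amount of RNA was not tested. The change is therefore one of probe signals. Repeated spots of control probes of like brightness had a median SD of log2 processed signal of 0.107 on the array of WT replicate 1, over 35 probes, and of 0.041 to 0.058 on the other arrays.

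The size of this change depended on how WT replicate 1 was processed. The scanner software multiplies each spot by a detrending factor that evens out slow trends in brightness over the array. For bright circRNA spots the factor ran from 0.738 to 1.62 on the array of WT replicate 1 and stayed between 0.890 and 1.16 on the other arrays. On that array it was 1.37 at the spot of mmu_circRNA_002319 and 0.878 at the spot of mmu_circRNA_43828, whereas on the other 5 arrays it lay between 0.961 and 1.04 at both spots. Around mmu_circRNA_002319, 47 spots bright on all arrays were, before detrending, a median of 0.40 (log2) lower on WT replicate 1 than the mean of the other WT arrays, relative to all bright spots. Around mmu_circRNA_43828, 44 such spots differed by 0.02.

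Before detrending, the log2 ratio of both probes was 0.54 in WT replicate 1 and -0.14 on both other WT arrays, while APP/PS1 replicates 1, 2 and 3 had -0.44, -0.49 and -0.45. In the authors' processed values it was 0.44 in WT replicate 1, -0.17 in the other WT replicates, and -0.41, -0.49 and -0.42 in APP/PS1. In both sets of values WT replicate 1 thus lay apart from its group, and after detrending it lay with it. The change between genotypes was -0.55 before detrending and without normalization, and -0.47 in the authors' values. Without WT replicate 1 it was -0.32 before detrending, -0.27 in the authors' values and -0.26 in the detrended, normalized values. In each of these sets every APP/PS1 ratio lay below every WT ratio. The direction of the log2 differences of both circRNAs did not depend on this step either. For mmu_circRNA_002319 and mmu_circRNA_43828 they were 1.77 and 1.24 before detrending, quantile normalized, against 1.60 and 1.31 after it. In the authors' values mmu_circRNA_002319 was 7.45, 8.34 and 8.27 in WT and 10.28, 9.81 and 9.0 in APP/PS1, and mmu_circRNA_43828 was 7.89, 8.17 and 8.10 in WT and 9.86, 9.32 and 8.58 in APP/PS1.

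**Figure D4:**
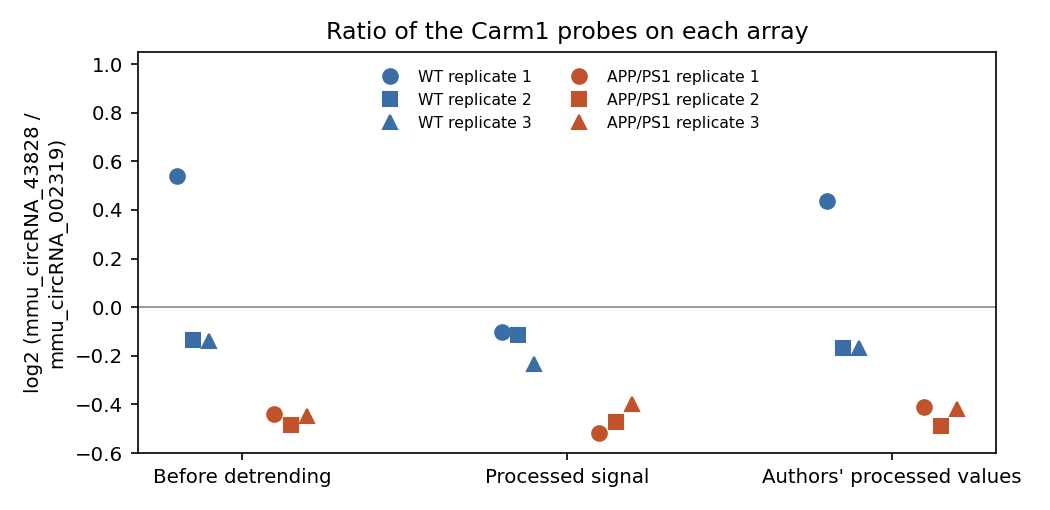
The log2 ratio of mmu_circRNA_43828 to mmu_circRNA_002319 on each array, before detrending, in the unnormalized processed signal and in the authors' processed values, with WT in blue and APP/PS1 in orange. WT replicate 1 stands at 0.54 and 0.44 in the outer sets and at -0.10 in the middle one, and all APP/PS1 ratios are lower than all WT ratios in each set.

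**Figure D5:**
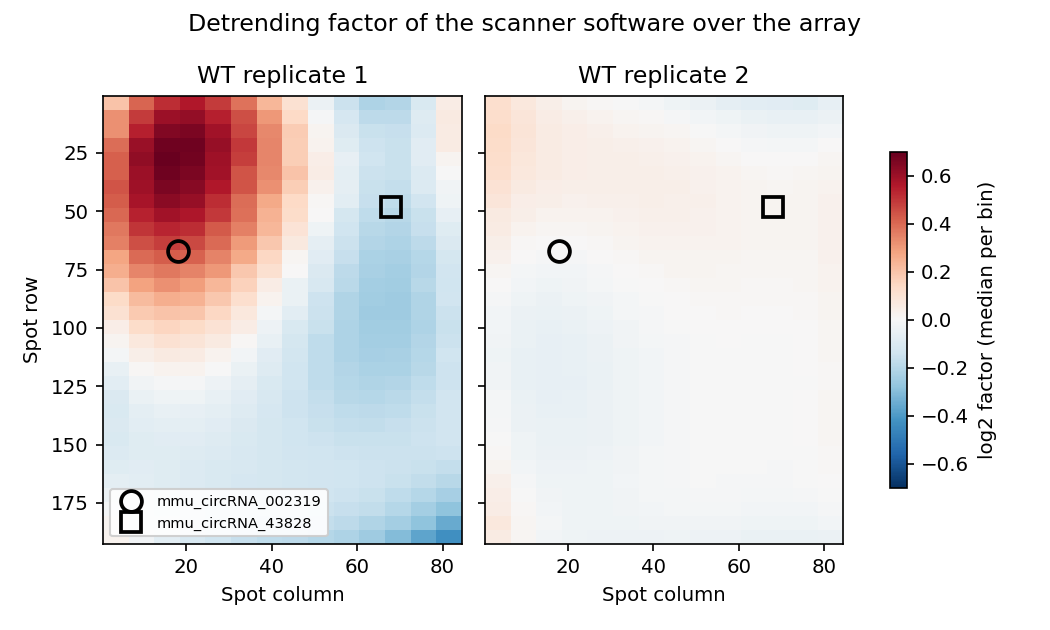
The detrending factor (log2, median over blocks of neighbouring circRNA spots) by spot row and column on the arrays of WT replicates 1 and 2; a circle marks the spot of mmu_circRNA_002319 and a square that of mmu_circRNA_43828. On WT replicate 1 the circle lies where the factor is above 1 and the square where it is below 1, and on WT replicate 2 both lie near a factor of 1.

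The Carm1 pair was set beside the other exonic circRNAs of 1 gene that share a start or an end. In 3 other pairs both circRNAs came from the list of changed circRNAs, and in each both were higher in APP/PS1 microglia. Nothing is read from this shared direction, because the list was selected on the same contrast. The circRNAs of Anks1b, a scaffold protein of synapses, had log2 differences of 0.94 and 0.97, those of Odf2l, a centrosomal protein, of 1.04 and 0.95, and those of Fam185a of 0.71 and 0.77. The circRNAs of these pairs differed from each other by 0.03 to 0.09 in their log2 difference, and those of the Carm1 pair by 0.29. The SD of the log2 ratio over the 6 arrays was 0.048 for Anks1b, 0.060 for Odf2l, 0.17 for Carm1 and 0.20 for Fam185a. In 3 further pairs with 1 member in the list, this SD ran from 0.37 to 0.54. Their members differed by 0.53 to 0.96 in log2 difference, a gap that the selection of only 1 member favours. In 25 pairs with neither member in the list, the SD had a median of 0.38 and ran from 0.06 to 0.63. It was above that of Carm1 in 21, and both members went in the same direction in 12. Most of those probes were dim. Over the 6 pairs with a mean normalized log2 signal above 6 for the dimmer probe, the SD had a median of 0.19. It was above that of Carm1 in 3 of these 6. In these the direction was the same in 6 of 6. These pairs are few and were not tested against each other.

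Around the shared start, 7 other circRNAs within 1000000 bases were paired with a probe. None of the 6 from the sheet of all circRNAs passed both thresholds, which 3.15% (higher) and 2.26% (lower) of all circRNAs kept did, so that 0 of 6 is near the general share. The nearest one, mmu_circRNA_43830 of Smarca4, the ATPase of a chromatin remodelling complex, began 77896 bases away. Its normalized log2 signal was 7.94, 8.03 and 8.09 in WT and 8.05, 8.16 and 8.22 in APP/PS1, a log2 difference of 0.13 (SE 0.11). The genotypes overlapped there. The log2 differences of the others were 0.07 for Raver1, a splicing regulator, -0.42 for Pde4a, a cyclic AMP phosphodiesterase, -0.25 for Zfp846, a zinc finger protein, -0.18 for Prkcsh, a subunit of glucosidase II, and -0.03 for a circRNA antisense to Tmem205. The circRNA of Bbs9, a subunit of the ciliary BBSome complex, was the 1 neighbour from the list of changed circRNAs, 998250 bases away, with a log2 difference of 0.71.

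Of 23 genes listed for arginine methylation, 4 had a circRNA paired with a probe. None of the 8 other arginine methyltransferases had one. Of 6 acetyltransferases and nuclear receptor coactivators that act with CARM1, Ep300 and Kat2b had one each. The circRNA mmu_circRNA_003429 of Ep300 had a normalized log2 signal of 3.08, 2.77 and 2.36 in WT and 3.89, 3.19 and 3.75 in APP/PS1. It was well above background on 1 of 3 WT and 3 of 3 APP/PS1 arrays, so it was kept through the APP/PS1 arrays and its WT level is largely a bound. Its fitted log2 difference of 0.87 (SE 0.24) is therefore no exact size. It passed both thresholds in these values but not in the authors' processed values, where it was 0.23, and it was not kept by a filter on all 6 arrays. The circRNA of Kat2b had a log2 difference of -0.05, which was 0.12 in the authors' processed values. Of 8 genes for substrates, Smarcc1, a chromatin remodelling subunit, had 2 circRNAs with log2 differences of -0.19 and 0.09, and neither passed. The circRNA of Tdrd3, a reader of methylated arginine, came from the list of changed circRNAs and was lower in APP/PS1, with a log2 difference of -0.85. Of the 4 circRNAs of these genes from the sheet of all circRNAs, that of Ep300 was thus the 1 past both thresholds, and so few circRNAs cannot be read against the 3.15% higher and 2.26% lower of all circRNAs kept. The median log2 difference of the 4 was 0.02, against -0.02 for all 1734 probes of that sheet.

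The paper itself reports a microglial marker mostly in the cells isolated through CD11b and hardly in the remaining cells. The label of the samples could not be checked on microglial circRNAs here, because none of 11 microglial marker genes had a circRNA paired with a probe. None of 5 oligodendrocyte and 3 endothelial marker genes had one either. Of 5 astrocyte genes, Slc1a2, a glutamate transporter, had one, with a normalized log2 mean of 9.02 in WT and 8.98 in APP/PS1. Of 8 neuronal genes, Map2 and Rbfox3 had one each. The circRNA of Map2, a dendritic protein of the cytoskeleton, lay between 4.30 and 4.62 in WT and between 4.22 and 4.46 in APP/PS1. The circRNA of Rbfox3, a nuclear protein of neurons, came from the list of changed circRNAs and lay between 5.57 and 5.91 in WT and between 6.24 and 6.64 in APP/PS1. Both it and the Carm1 circRNAs were selected on this contrast, so nothing is read from their shared direction. In WT its values in replicates 1, 2 and 3 were 5.91, 5.69 and 5.57, highest where the Carm1 circRNAs were lowest. In APP/PS1 they were 6.64, 6.40 and 6.24, in the same order as those of the Carm1 circRNAs. The Map2 circRNA came from the sheet of all circRNAs, and its genotypes overlapped. The part of neuronal or astrocyte RNA in the Carm1 values was not tested. On the slide, row 1 held all WT arrays and row 2 all APP/PS1 arrays, so genotype cannot be told apart from slide row.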

How the data were processed

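The authors deposited spot intensity values of each array from Feature Extraction 11.0.1.1, as the submitters' processing notes name it, and a table of log2 values that their methods describe as quantile normalized. The processed intensity (background-subtracted and detrended) was log2 transformed, outlier spots were left out, circRNA probes were kept where they rose well above background on 3 or more of the 6 arrays, and arrays were quantile normalized. Genotypes, taken from the sample labels, were compared with lmFit and eBayes of limma 3.58.1 in R 4.3.3, with Benjamini-Hochberg adjustment over all probes kept, and the steps were tested on simulated data. The number of arrays limits precision.

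The members and gene lists were chosen with earlier results of these data known. Named were both Carm1 circRNAs, the 5 circRNAs most like each, circRNAs of the arginine methylation list, neighbours within 1000000 bases, cell type markers and pairs with a shared end. Probes were named through the study's tables, held with 218 changed and the first 1734 of all circRNAs, so other Carm1 probes may be unpaired. A result under the arginine methylation list is not reported here, and the counts of that list were made without it. Alternatives covered normalization, background correction, filter, test, replicate block, the authors' values and each array left out; 1 was added after seeing the data, the signal before detrending. Normexp, with an offset of 50, took the median spot signal.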

Additional observations from a re-analysis of the deposited data

How the results depend on the processing

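Both Carm1 circRNAs kept their direction, and moved by less than the spread between replicates, under all 16 alternatives run for each, with log2 differences from 1.31 to 1.95 for mmu_circRNA_002319 and from 1.06 to 1.64 for mmu_circRNA_43828; the lowest values were without APP/PS1 replicate 1. The change of the log2 ratio of both probes kept its direction and was -0.48 with the median spot signal, -0.45 with normexp, -0.47 in the authors' values and -0.53 with the signal before detrending (chosen after seeing the data, quantile normalized), and from -0.34 to -0.25 with each array left out. The count of circRNAs higher in APP/PS1 was 423, and 1538 without normalization, 197 with the median signal, 128 with normexp and 214 in the authors' values; with each array left out it was from 362 to 541. The count of lower circRNAs was 303, and 48, 90, 59 and 104 under the same settings; with each array left out it was from 235 to 519, the highest without APP/PS1 replicate 1. Without normalization the median log2 difference of all circRNAs kept was 0.26, and that of the Smarca4 circRNA 0.46. Scaling to the 75th percentile gave 331 higher and 422 lower, the opposite balance. The methods' t-test passed 282 and 202. The count for the arginine methylation genes, 1 for Ep300, was 0 with the median signal, with normexp, in the authors' values and with the filter on all 6 arrays, and 1 with each array left out. Among the other circRNAs named, Pde4a passed without WT replicate 2 (-0.61) and Bbs9 no longer passed without APP/PS1 replicate 1 (0.58), while Ascc3 (0.54), Rims2 (0.41), Pank4 (0.50) and Adamts3 (0.52) did not pass with normexp, nor Tdrd3 (-0.55) without normalization. With the replicate block the counts were 444 and 305 and the Carm1 log2 differences 1.60 and 1.31; the deviations of like-numbered samples did not go together (correlations -0.25, -0.08 and -0.22), so the numbers were not taken as pairs. Why these values shifted was not tested. The number of arrays, 3 per genotype, and 1 spot per circRNA probe limit the precision; the error of the Carm1 spots themselves was not measured.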
